A study of Bos taurus with 31 samples.

Results

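The smooth muscle contractile genes were followed through 31 liver biopsies of lactating German Holstein cows, which had been fed rations with glyphosate-contaminated or control feed at a high or a low concentrate feed proportion (CFP). The 10 genes, ACTA2, ACTG2, TAGLN, MYH11, CNN1, MYL9, LMOD1, DES, TPM2 and SYNM, were taken by symbol from the 24616 genes of the raw count table. All 10 passed the minimum of 20 reads over all cows, as did 15916 genes in total. The rule names symbols alone, but the genes were selected on measured values: their levels per biopsy and their differences between feeding groups in these same libraries were known. The levels and calls given here therefore describe the libraries and are not independent evidence of a feeding effect.

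CONHC cows (n = 8) received a control ration with 60% concentrate, and CONLC cows (n = 8) a control ration with 30% concentrate; control cows also took in small amounts of glyphosate residues. GLYHC (n = 8) and GLYLC (n = 7) cows received the same CFP with glyphosate-contaminated feed, and all biopsies analysed here were taken by puncture at week 16. Each biopsy is 1 cow and 1 library of poly(A) RNA from all cells of the sampled tissue, so fewer cells of a type and less RNA per cell cannot be told apart. The libraries held 11675775 to 36675542 reads assigned to genes. None of the 105 pairs of cows of the same group agreed within sampling noise, so each library was counted as 1 replicate. Values are given as CPM, the reads of a gene per 1000000 reads of the library, after scaling with TMM, the trimmed mean of M-values, which corrects for differences in library composition. Levels are compared between biopsies within a gene, not between genes, since gene lengths were not used here.

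Smooth muscle cells shorten when myosin filaments pull on thin filaments of actin, and phosphorylation of a small myosin light chain, driven by calcium and calmodulin, switches the motor on. In the liver such cells form the walls of arteries and veins, while pericytes and activated hepatic stellate cells carry part of the same protein set. The actins, tropomyosins and myosins each come from gene families with members in smooth, skeletal and heart muscle, and the intermediate filament proteins desmin and synemin are shared by all 3 kinds of muscle.

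The signal of these genes fell on few biopsies. The biopsy of GLYLC cow 912 had the highest level of 8 of the 10 genes and had rank 5 for ACTA2 and TPM2. It was among the 5 highest biopsies for all 10. A second set of 4 biopsies, from CONLC 166, CONHC 123, GLYHC 127 and CONLC 103, shared high levels of TPM2, DES and SYNM. In the other 26 biopsies the levels of each gene spread more evenly over the biopsies. Among these 26, 9 of the 10 genes still had a lower fitted level at high than at low CFP (log2 fold changes from -0.73 to 0.11). In that fit 0 of the 10 and 0.271% of all genes were called at the thresholds given below. By edgeR 4 of the 10 were lower at an unadjusted p under 0.05, as were 5.52% of all genes.

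**Figure D1:**
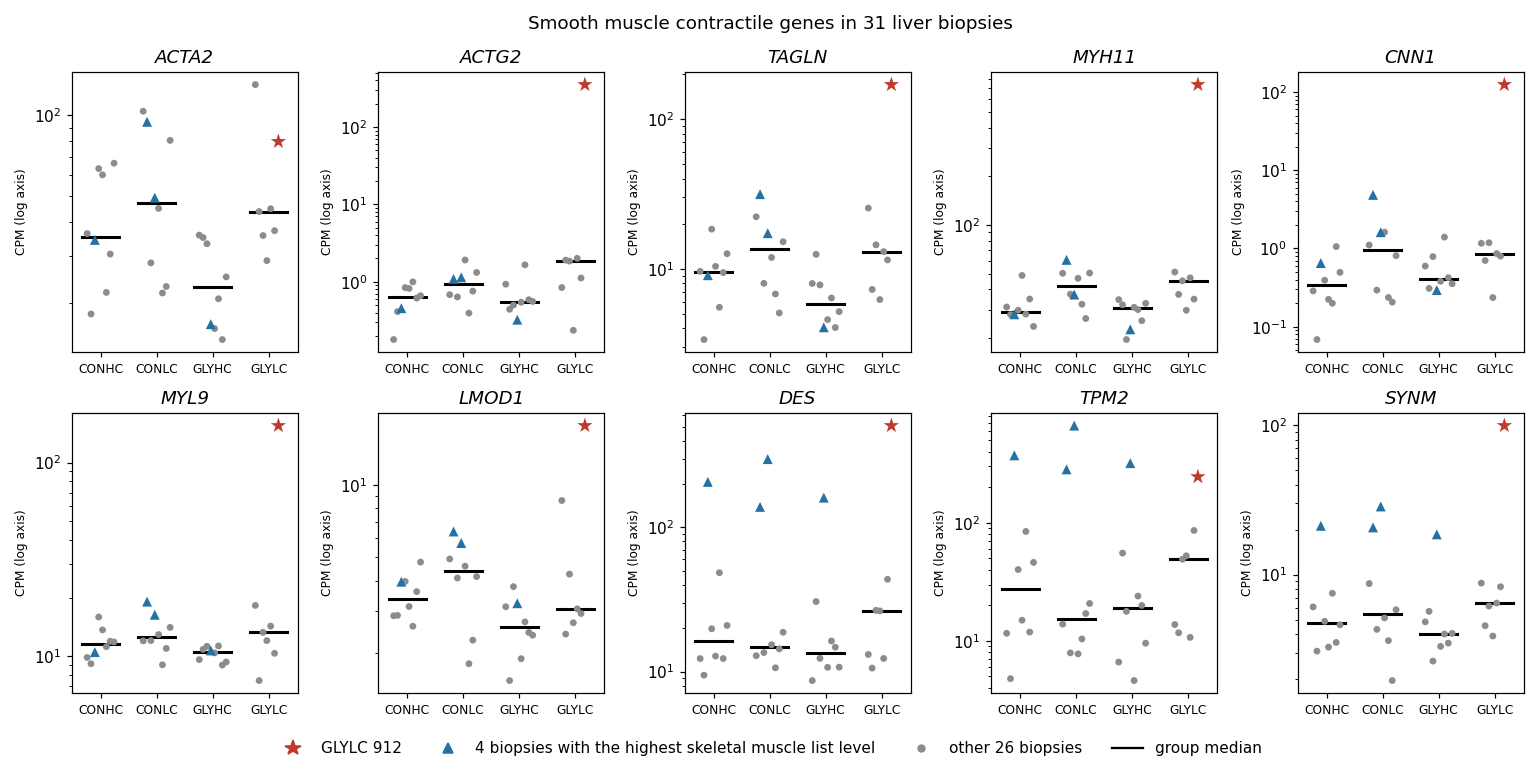
Each panel plots the CPM of a gene (log axis) in the 31 biopsies by feeding group, with a black line at the group median; the red star is GLYLC 912, blue triangles are the 4 biopsies with the highest summed level of skeletal and heart muscle genes, and grey points are the other 26. The star lies above every other point for 8 genes, the triangles lie above all grey points for DES, TPM2 and SYNM, and ACTA2 spreads without a biopsy that stands apart.

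ACTG2 (ENSBTAG00000015441), the gamma smooth muscle actin that is abundant in the muscle layers of the gut, was read almost only in GLYLC 912. Its level there was 354 CPM (9680 reads). The next highest biopsy, GLYLC 544, had 2.01 CPM. GLYLC 912 thus held 93.1% of the CPM summed over all cows and 492 times the median of the other 30. The lowest, median and highest levels were 0.179, 0.638 and 0.996 CPM in CONHC, 0.394, 0.922 and 1.91 CPM in CONLC, 0.323, 0.550 and 1.66 CPM in GLYHC, and 0.236, 1.85 and 354 CPM in GLYLC. All 4 groups overlapped, although 4 of the 7 GLYLC cows, 912 among them, lay above every GLYHC cow. Outside GLYLC 912 these levels rested on few reads, with a median of 15 over all libraries and fewer than 10 in 7 of them.

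CNN1 (ENSBTAG00000011207), calponin, which binds actin and damps the myosin motor, followed the same pattern. It reached 124 CPM (3398 reads) in GLYLC 912, 84.0% of the summed CPM. The second biopsy was CONLC 103 with 4.84 CPM, and the third CONLC 169 with 1.61 CPM. The median was 0.339 CPM in CONHC, 0.957 in CONLC, 0.402 in GLYHC and 0.861 in GLYLC. Apart from GLYLC 912, no GLYLC cow exceeded the highest GLYHC cow, 1.40 CPM in GLYHC 152. CNN1 had fewer than 10 reads in 13 libraries.

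The smooth muscle myosin heavy chain MYH11 (ENSBTAG00000015988), the motor itself, was well read in every library, with at least 274 reads. It stood at 737 CPM in GLYLC 912, followed by 60.8 CPM in CONLC 103. The lowest, median and highest levels were 23.6, 28.9 and 48.7 CPM in CONHC, 26.4, 42.1 and 60.8 in CONLC, 19.6, 30.5 and 34.6 in GLYHC, and 29.7, 45.2 and 737 in GLYLC. MYH11 showed little spread once GLYLC 912 was set aside. The highest of the other 30 biopsies was 3.11 times the lowest, and the SD of log2 CPM fell from 0.885 to 0.396, which placed MYH11 at the 59.5th percentile of all genes tested. Even so, 6 of the 7 GLYLC cows lay above the highest GLYHC cow, and the groups still overlapped.

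The regulatory light chain MYL9 (ENSBTAG00000011473), whose phosphorylation starts contraction, reached 155 CPM in GLYLC 912 and 19.2 CPM in the next biopsy, CONLC 103. Its medians were 11.6 CPM in CONHC, 12.5 in CONLC, 10.6 in GLYHC and 13.3 in GLYLC. MYL9 was the most even of the 10 genes outside GLYLC 912, with a 2.55-fold range over 30 biopsies and an SD at the 48.0th percentile. Its lowest level, 7.51 CPM, was also in a GLYLC cow, GLYLC 102.

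ACTA2 (ENSBTAG00000014614), the alpha smooth muscle actin that also marks activated stellate cells and myofibroblasts, was not carried by a single biopsy. The highest level was 130.1 CPM in GLYLC 42, followed by 104 CPM in CONLC 60, 94.7 CPM in CONLC 103 and 80.7 CPM in CONLC 941. GLYLC 912 had rank 5 with 79.9 CPM, 2.25 times the median of the others. The lowest, median and highest levels were 18.3, 35.4 and 66.4 CPM in CONHC, 21.9, 47.3 and 104 in CONLC, 14.7, 23.0 and 35.9 in GLYHC, and 28.9, 43.9 and 130.1 in GLYLC. The first 5 biopsies were all LC biopsies, and 5 of the 7 GLYLC cows lay above the highest GLYHC cow, while the ranges of all 4 groups overlapped.

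TAGLN (ENSBTAG00000007196), transgelin, an actin-binding protein of smooth muscle and myofibroblasts, combined both patterns. GLYLC 912 stood at 170 CPM, and behind it came CONLC 103 (31.5 CPM), GLYLC 42 (25.4 CPM) and CONLC 60 (22.2 CPM). The medians were 9.50 CPM in CONHC, 13.5 in CONLC, 5.76 in GLYHC and 13.0 in GLYLC. LMOD1 (ENSBTAG00000021576), leiomodin, which starts new actin filaments, was also highest in GLYLC 912 with 17.6 CPM, followed by GLYLC 42 with 8.62 CPM and CONLC 103 with 6.41 CPM. Its medians were 3.37 CPM in CONHC, 4.38 in CONLC, 2.57 in GLYHC and 3.06 in GLYLC. For TAGLN and LMOD1 as for ACTA2, GLYLC 42, CONLC 60 and CONLC 103 were thus among the 5 highest biopsies.

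DES (ENSBTAG00000005353), desmin, the intermediate filament protein that ties contractile bundles together, was high in 5 biopsies. It reached 509 CPM in GLYLC 912, 298 CPM in CONLC 166, 207 CPM in CONHC 123, 161 CPM in GLYHC 127 and 139 CPM in CONLC 103, and the sixth biopsy, CONHC 144, had 48.6 CPM. These 5 biopsies held 74.1% of the summed CPM. Group medians were 16.3 CPM in CONHC, 14.9 in CONLC, 13.6 in GLYHC and 26.4 in GLYLC. SYNM (ENSBTAG00000011752), synemin, a partner of desmin, was high in the same 5 biopsies, with 99.1 CPM in GLYLC 912 and 18.6 to 28.6 CPM in the other 4, against at most 8.78 CPM elsewhere.

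TPM2 (ENSBTAG00000011424), beta-tropomyosin, which lies along actin and is made in striated as well as smooth muscle, was led by other biopsies. CONLC 166 had 664 CPM, CONHC 123 had 372 CPM, GLYHC 127 had 319.6 CPM, CONLC 103 had 283 CPM and GLYLC 912 had 245 CPM. The sixth biopsy, GLYLC 905, had 86.1 CPM and the lowest, GLYHC 131, 4.62 CPM. TPM2 varied more than 99.4% of the genes tested (SD of log2 CPM 1.96, against a median of 0.342 over all genes), and leaving out GLYLC 912 changed this little (1.91). The biopsies high in TPM2 came from all 4 groups.

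To see what else these biopsies held, marker lists of the cell types that a liver biopsy could contain were summed in each library. GLYLC 912 had 472.9 CPM of the 9 intestinal epithelium genes tested, against 38.6 to 107 CPM in the other 30 biopsies, and 7 of the 9 were highest there. CDH17 was highest in GLYHC 131 (79.0 CPM, 64.5 CPM in GLYLC 912) and GUCA2A in GLYHC 159 (6.53 CPM, 1.64 CPM in GLYLC 912). CDH17 and LGALS4 had the highest levels of the list, with medians of 44.1 and 23.85 CPM over all biopsies. FABP2, the fatty acid binding protein of enterocytes, stood at 206 CPM in GLYLC 912 and at most 0.163 CPM elsewhere, with 0 reads in 24 libraries. BCO1, which cleaves beta-carotene, stood at 46.8 CPM against at most 0.110 CPM. A count of 0 allowed 0.0881 to 0.264 CPM, depending on the library, and covers counting error only. The same biopsy had the lowest summed level of 10 hepatocyte genes (109945 CPM, against 132710 to 222843 CPM), with ALB at 42897 CPM, while the hepatocyte genes FGB and APOA1 were highest there. The 6 gut pacemaker and nerve genes tested summed to 62.5 CPM in GLYLC 912, only rank 29, against 50.4 to 118 CPM in the other 30 biopsies. Even so, 4 of the 6 were highest in GLYLC 912. They were UCHL1 (4.13 CPM, against at most 3.07 CPM), VIP (2.52 CPM, against at most 0.150 CPM), HAND1 (2.45 CPM, with 0 reads in the other 30 libraries) and RET (0.621 CPM, against at most 0.206 CPM). The others, KIT and ANO1, the defining pacemaker cell genes, lay within the range of the other biopsies (5.26 and 47.5 CPM).

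**Figure D2:**
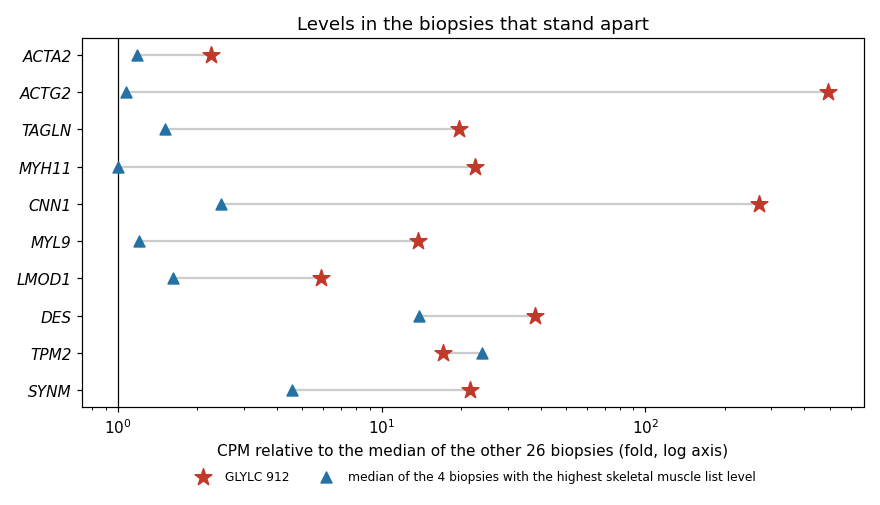
For each gene the red star gives the CPM in GLYLC 912 and the blue triangle the median CPM of the 4 biopsies with the highest skeletal muscle list level, both divided by the median of the other 26 biopsies (log axis; the vertical line marks 1). The star lies at 492 for ACTG2 and 270 for CNN1 but at 2.25 for ACTA2, and the triangle lies at 24.0 for TPM2, 13.8 for DES and 4.56 for SYNM and at or below 2.46 for the other 7 genes.

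The 4 biopsies high in TPM2, DES and SYNM were the 4 with the highest summed level of 29 skeletal and heart muscle genes, such as ACTA1, MYH7, MYH2 and TTN. The sum was 7630 CPM in CONLC 166, 4578 CPM in GLYHC 127, 3891 CPM in CONLC 103 and 3814 CPM in CONHC 123. CONHC 144 followed with 965.5 CPM, and GLYLC 912 was seventh with 656 CPM. Of the 29 genes, 27 had their highest level in 1 of the 4 biopsies and 0 in GLYLC 912. The list was present at some level in every biopsy, from 4.42 CPM upward, with group medians of 226 CPM in CONHC, 88.4 in CONLC, 158 in GLYHC and 381 in GLYLC.

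Relative to the median of the other 26 biopsies, the median of these 4 biopsies was 24.0-fold for TPM2, 13.8-fold for DES and 4.56-fold for SYNM. The remaining 7 genes lay at 2.46-fold (CNN1) or below, and MYH11 had the same median in both sets (32.6 CPM). Over all 31 biopsies Spearman's rho with the skeletal list level was 0.97 for TPM2, 0.83 for DES and 0.47 for SYNM (Pearson's r of log2 values 0.95, 0.81 and 0.58), and between -0.22 and 0.18 for the other 7 genes. Without CONLC 166 and GLYHC 127, the 2 biopsies farthest from the median of the list level, Pearson's r was 0.93, 0.75 and 0.47. All values of a library share its depth and scaling factor, so these correlations are descriptions.

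**Figure D3:**
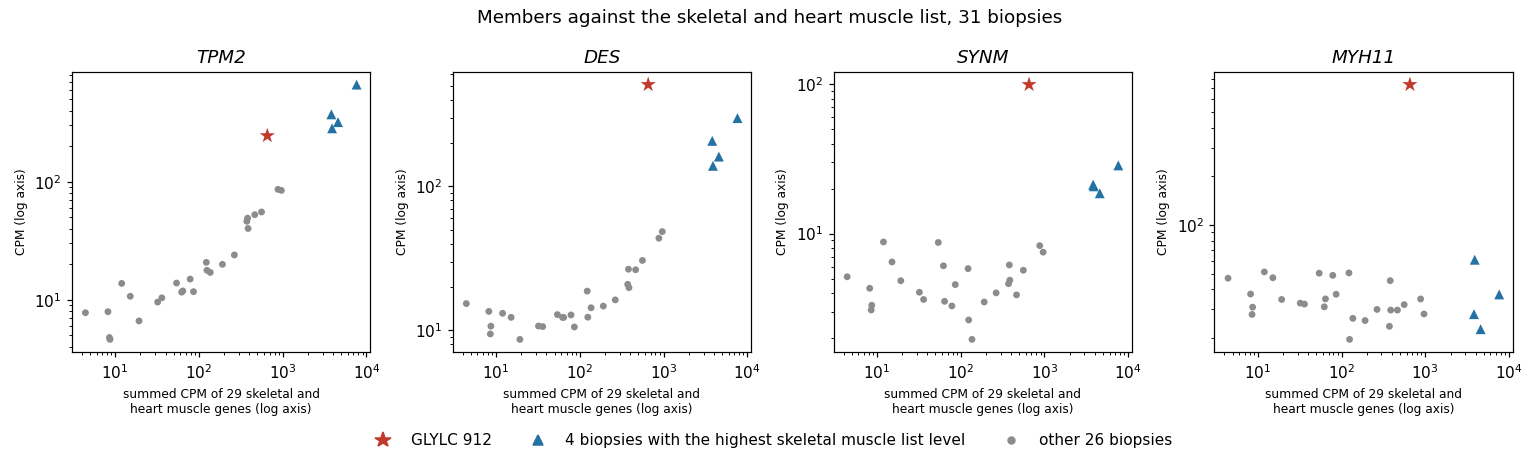
TPM2, DES, SYNM and MYH11 CPM (vertical log axis) are plotted against the summed CPM of 29 skeletal and heart muscle genes (horizontal log axis), 1 point per biopsy. TPM2 climbs along the whole axis (rho 0.97), DES and SYNM are high in the 4 biopsies marked by triangles and in GLYLC 912, and MYH11 shows no such slope (rho -0.22).

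CONLC 103 differed from the other 3 of these biopsies. It was among the 5 highest for 6 of the 7 genes outside TPM2, DES and SYNM, and it had the highest fibroblast and connective tissue level of all biopsies, 2130 CPM over 15 genes against 78.9 to 257 CPM in the biopsies outside the 4. COL1A1, a chain of type I collagen, stood at 434 CPM there, with a median of 6.55 CPM over all biopsies. CONLC 166 was among the 5 highest for 3 of the 7 genes, and CONHC 123 and GLYHC 127 for 0. GLYLC 42 was among the 5 highest for 5 and CONLC 60 for 4 of the 7, and for 0 of TPM2, DES and SYNM.

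Among the members, the pair ACTA2 and TAGLN (rho 0.92 over 31 biopsies) and the pair DES and TPM2 (rho 0.92) varied most alike. The 21 pairs within ACTA2, ACTG2, TAGLN, MYH11, CNN1, MYL9 and LMOD1 had a median rho of 0.66, from 0.42 to 0.92. The 21 pairs between these 7 genes and DES, TPM2 and SYNM had a median rho of 0.34, from -0.09 to 0.64, and the 3 pairs within DES, TPM2 and SYNM 0.64, from 0.57 to 0.92. This split follows levels already seen, and SYNM went with TAGLN (0.64) and LMOD1 (0.57) as closely as with DES (0.64) and TPM2 (0.57). Leaving out GLYLC 912 gave medians of 0.63, 0.29 and 0.60. MYH11 also varied with the summed level of the hepatic stellate cell list (rho 0.70, and 0.79 without GLYLC 912), in which RELN, NGFR, IGFBP3 and the matrix proteoglycan DCN had the highest levels. Its rho with the pericyte list was as high (0.75, and 0.72 without GLYLC 912). For ACTA2 the values were 0.55 with the stellate cell list and 0.57 with the pericyte list.

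High and low CFP were compared first among glyphosate-fed cows. A gene was called when its unadjusted p was under 0.05 and its adjusted p under 0.1 in edgeR's quasi-likelihood test over all genes. In GLYHC, 4 of the 10 genes were called lower than in GLYLC, and 0.163% of all genes tested were called lower (0.201% in either direction), a background from which nothing is read here because the genes were chosen with these values known. ACTG2 was lower by a log2 fold change of -6.30 (SE 1.15, edgeR adjusted p = 0.0344) and CNN1 by -5.13 (SE 1.07, adjusted p = 0.0716). MYH11 (-2.30, SE 0.50, adjusted p = 0.0848) and TAGLN (-2.44, SE 0.56, adjusted p = 0.0867) were the other two. All 10 log2 fold changes were negative, with a median of -1.70 against -0.008 over all genes, and 8 members had an unadjusted p under 0.05, against 7.45% of all genes in that direction. The contractile genes not called were MYL9 (-1.68, adjusted p = 0.103), LMOD1 (-1.18, adjusted p = 0.148), ACTA2 (-1.21, adjusted p = 0.170) and SYNM (-1.73, adjusted p = 0.271), and DES (-1.46) and TPM2 (-0.22) had unadjusted p above 0.05.

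These calls ended without GLYLC 912. The log2 fold change of ACTG2 then went from -6.30 to -0.96 (SE 0.40, edgeR adjusted p = 0.534), that of CNN1 to -0.60 (SE 0.56), that of MYH11 to -0.52 (SE 0.17, adjusted p = 0.420) and that of TAGLN to -0.99 (SE 0.37, adjusted p = 0.498). DES and TPM2 turned to 0.60 and 0.63. ACTA2 hardly moved, at -1.12 (SE 0.37, unadjusted p = 0.00563, adjusted p = 0.430). With this biopsy left out, 0 of 10 genes and 0 of 15752 genes were called, and 5 of 10, ACTA2, ACTG2, TAGLN, MYH11 and LMOD1, had an unadjusted p under 0.05, all lower in GLYHC, against 4.44% of all genes. The calls also ended when GLYHC 32, GLYHC 127 or GLYHC 154 was left out, each time with 0 members called. Of all genes, 0, 2 and 0 were called in these fits, so the loss was not particular to the members. The sizes stayed there, with median log2 fold changes of -1.66, -2.27 and -1.66 over the 10 genes. Their lowest edgeR adjusted p were 0.106, 0.103 and 0.109. Without GLYLC 912 the median was -0.56. DESeq2 on all cows, which replaces single counts far from their group, took ACTG2 in GLYLC 912 as 21 reads. It called ACTA2 (-1.21, DESeq2 adjusted p = 0.0822), TAGLN (-2.45) and LMOD1 (-1.18) lower in GLYHC, where 0.898% of all genes were called. The GLYLC 912 counts of these 3 genes were not replaced (TAGLN 4667 and LMOD1 483 reads). The sizes of TAGLN and LMOD1 were thus those of edgeR with that biopsy (-2.44 and -1.18), against -0.99 and -0.61 without it.

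Among control cows, CONHC against CONLC, 0 of the 10 genes were called, 0 had an unadjusted p under 0.05 against 5.96% of all genes, and 0 of all 15916 genes were called (0%). By DESeq2 on all cows 0 members were called as well (0.170% of all genes), with MYH11 and CNN1 at an unadjusted p under 0.05. The log2 fold changes were all negative and had a median of -0.56, from -1.68 (CNN1, SE 1.14) to -0.18 (MYL9, SE 0.41). The values for TPM2 (-0.81, SE 1.03) and DES (-0.61, SE 0.91) turned to 1.23 and 0.45 when the 4 biopsies with the highest skeletal muscle level were left out. GLYLC 912 is in neither control group but enters the estimate of spread that all groups share. Without it the median stayed at -0.56. MYH11 (-0.44, SE 0.16 instead of 0.47) and CNN1 (-1.68, SE 0.54) then had edgeR unadjusted p of 0.00878 and 0.00419. In that fit 3.83% of all genes were under 0.05 in that direction, and 0 members and 0.0444% of all genes were called.

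Over all cows, with the glyphosate factor in the model, HC (n = 16) was set against LC (n = 15). In HC, 3 of the 10 genes were called lower, and 0.773% of all genes were called lower (1.45% in either direction). They were CNN1 (log2 fold change -3.76, SE 0.88, edgeR adjusted p = 0.0468), ACTG2 (-4.29, SE 1.10, adjusted p = 0.0698) and TAGLN (-1.50, SE 0.42, adjusted p = 0.0950). Another 5 genes, MYH11, ACTA2, LMOD1, MYL9 and SYNM, had an unadjusted p under 0.05 and log2 fold changes of -1.35, -0.81, -0.73, -0.92 and -1.13, so that 8 members were under 0.05 against 7.80% of all genes in that direction. DESeq2 on all cows called ACTA2, TAGLN and MYH11, where 2.73% of all genes were called.

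Without GLYLC 912 the direction over all cows stayed negative for all 10 genes, while the sizes shrank and the call passed to another gene. MYH11 was then called, at -0.48 (SE 0.11, edgeR adjusted p = 0.0569), where 0.863% of all genes were called. It stood at 30.01 ± 6.56 CPM in HC (SD, n = 16) and 41.9 ± 9.79 CPM in LC without GLYLC 912 (SD, n = 14), and 13 of all 15 LC cows lay above the HC median. ACTA2 was -0.75 (SE 0.26), with 33.1 ± 16.8 CPM in HC (SD, n = 16) and 54.9 ± 33.7 CPM in LC (SD, n = 14). ACTG2, TAGLN and CNN1 were -0.82, -0.77 and -1.17 and were not called, with the lowest edgeR adjusted p at 0.180 (TAGLN). With the 4 skeletal muscle biopsies left out as well, MYH11 was -0.41 (SE 0.12, adjusted p = 0.159), 0 of 10 genes were called, and 0.271% of all genes were.

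**Figure D4:**
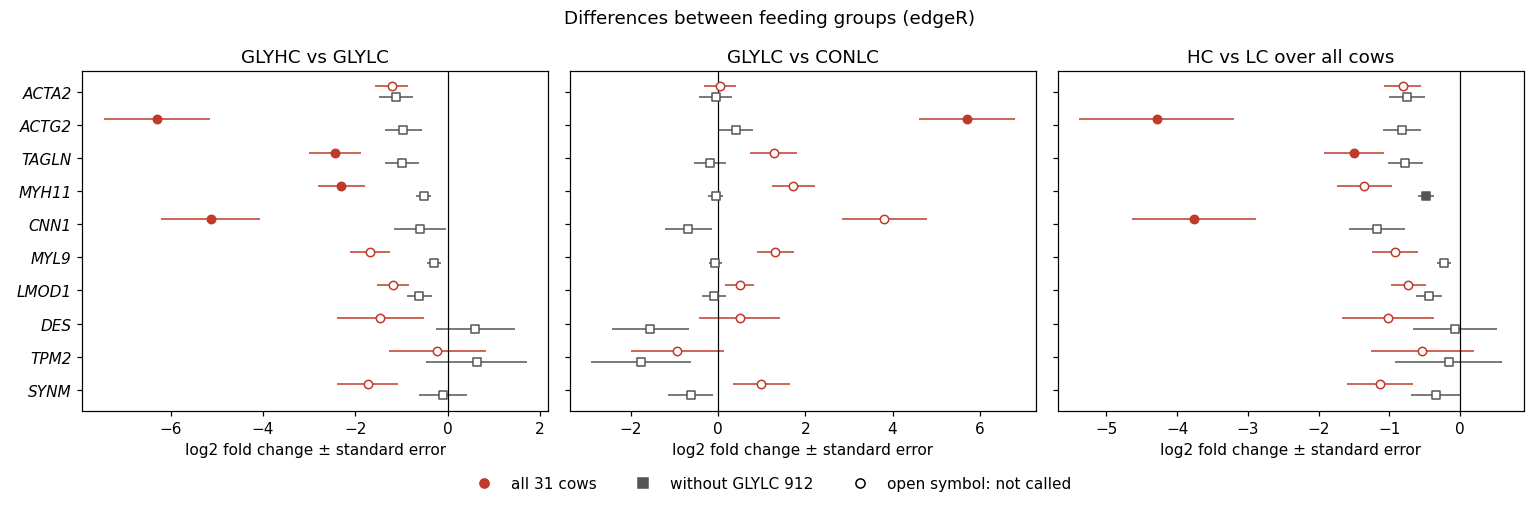
Log2 fold changes from edgeR with their standard errors for the 10 genes in 3 comparisons (negative means lower in the group named first); red circles use all 31 cows, grey squares leave out GLYLC 912, and filled symbols were called. Without GLYLC 912 the values of ACTG2 and CNN1 move towards 0 in all 3 panels, ACTA2 hardly moves, and MYH11 is the only filled square (HC vs LC, -0.48).

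Glyphosate was compared at each CFP. At low CFP 1 of the 10 genes, ACTG2, was called higher in GLYLC than in CONLC, with a log2 fold change of 5.70 (SE 1.10, edgeR adjusted p = 0.0832), and 0.0565% of all genes were called higher (0.0628% in either direction). TAGLN, MYH11, CNN1 and MYL9 had an unadjusted p under 0.05 (1.27, 1.72, 3.81 and 1.31) and were not called, so that 5 members were under 0.05 against 3.71% of all genes in that direction. With DESeq2 on all cows 0 were called (0.0251% of all genes), with 1 member under 0.05. Without GLYLC 912, 0 genes were called, ACTG2 was at 0.40 (SE 0.39), and the other 9 members were below 0. The call of ACTG2 was lost in 23 of the 31 fits that left out 1 cow, and in those fits 0 of all genes were called. At high CFP, GLYHC against CONHC, 0 of the 10 genes were called, with 0% of all genes called and a median log2 fold change of -0.27, from -0.75 to 0.36. In that comparison ACTA2 alone of the 10 had an unadjusted p under 0.05, at -0.75 (SE 0.35, edgeR unadjusted p = 0.0418), and 1.31% of all genes were under 0.05 in that direction. By DESeq2 on all cows 0 were called as well (0% of all genes), with ACTA2 under 0.05.

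The interaction of glyphosate with CFP was called for 0 of the 10 genes and 0% of all genes (edgeR adjusted p = 0.999 for every member). Its log2 values had a median of -1.34, and 5 members, ACTG2, TAGLN, MYH11, CNN1 and MYL9, had an unadjusted p under 0.05, all negative, against 2.32% of all genes. Without GLYLC 912 the median was -0.10 and 0 members were under 0.05. DESeq2 on all cows called 0 members (0.00628% of all genes), with 1 under 0.05. Glyphosate over all cows was likewise called for 0 members and 0% of all genes, with ACTG2 at 3.88 (edgeR adjusted p = 0.590), and ACTG2 and CNN1 (2.67) were under an unadjusted p of 0.05, both higher, against 2.47% of all genes. DESeq2 called 0 there (0.00628% of all genes), with 0 under 0.05. A p above the threshold does not show that groups were alike: without GLYLC 912 the SE for the 10 genes still ranged up to 1.09 in GLYHC against GLYLC (TPM2).

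The other genes of the contractile apparatus were taken from a list of 39 genes, of which 35 were tested. In all comparisons 0 of the 35 were called. Of all genes, 0.201% were called in GLYHC against GLYLC and 1.45% in HC against LC. The median log2 fold change of the 35 was -0.27 and -0.24 there. In GLYHC against GLYLC, VCL, FLNA, SMTN, CSRP1, SYNPO2, KCNMB1, CACNA1C and MYOCD had an edgeR unadjusted p under 0.05. All were lower and had their highest level in GLYLC 912, and 7.45% of all genes were lower at that threshold. In HC against LC they were VCL, FLNA, PPP1R14A, SYNPO2, KCNMB1, CACNA1C, PLN, MYOCD and VIM, lower, and CALD1, higher (7.80% of all genes lower). The 4 with the highest levels, the cytoplasmic actins ACTB and ACTG1, the essential light chain MYL6 and the actin-binding CALD1, stood in GLYLC 912 at 543, 314, 331 and 154 CPM, beside medians of 373, 153, 192 and 163 CPM. In GLYLC 912, 18 of the 35 were at their highest, and 9 were at their highest in 1 of the 4 skeletal muscle biopsies. Examples chosen after their values were seen were FLNA, which cross-links actin (331 CPM against at most 46.3 elsewhere), CSRP1, a LIM protein of smooth muscle (59.6 against 13.3), SMTN, smoothelin (54.2 against 18.3), and KCNMB1, the smooth muscle subunit of the large calcium-activated potassium channel (8.22 against 1.10). MYOCD, myocardin, the coactivator of SRF that drives smooth muscle genes, was at 1.32 CPM in GLYLC 912 and at most 0.160 CPM in any other biopsy.

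The tested genes whose levels varied most like the mean of the 10 members over the 31 biopsies (Spearman's rho, each member centred on its median) were NEXN (0.85), SH3BGR (0.84), TMOD1 (0.81), PDLIM3 (0.81), SYNPO2 (0.80), MUSTN1 (0.79), PLN (0.79), PALLD (0.79), HSPB6 (0.77) and NDRG4 (0.77). Of these, 7 were highest in CONLC 166, and SYNPO2, PALLD and NDRG4 were highest in GLYLC 912. When each cow was left out in turn, 7 to 10 of the 10 stayed among the first 10, and 9 did so without GLYLC 912.

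Among the other marker lists, the stellate cell list spread over the biopsies, from 260 to 679 CPM, with GLYLC 912 at rank 22 (382 CPM). The pericyte list, led by RGS5, PDGFRB, ABCC9 and KCNJ8, had its highest sum in GLYLC 912 (74.8 CPM, against 14.6 to 56.5 CPM), although only 3 of its 9 genes, RGS5, MCAM and CSPG4, were highest there. RGS5 stood at 27.1 CPM in GLYLC 912 and at most 7.36 CPM elsewhere. PDGFRB, a receptor that marks pericytes, stood at 12.6 CPM in GLYLC 912, below its median of 14.7 CPM. KCNJ8 was called lower in HC over all cows (log2 fold change -0.45, edgeR adjusted p = 0.0550), as were the stellate cell genes DCN (-0.50, adjusted p = 0.0275) and ALDH1A2 (-0.84, adjusted p = 0.0442). DCN was also called lower in GLYHC than in GLYLC (-0.65, adjusted p = 0.0848). Intestinal epithelium genes were called in the same comparisons as ACTG2: FABP2, MUC13, OLFM4 and BCO1 lower in GLYHC than in GLYLC and lower in HC, and FABP2, OLFM4 and BCO1 higher in GLYLC than in CONLC. With the skeletal muscle level as a covariate, the median log2 fold change of the members in GLYHC against GLYLC was -1.59. ACTG2 stood at -5.82 (SE 1.22, edgeR adjusted p = 0.120) and TPM2 at -0.87 (SE 0.30, adjusted p = 0.222). All 10 had an unadjusted p under 0.05, against 7.59% of all genes in that direction. This fit kept GLYLC 912, and no fit with the covariate left it out. Without GLYLC 912 and without the covariate, 5 members were under 0.05, and DES and TPM2 were at 0.60 and 0.63. The part of the other cell types in the differences between feeding groups was not tested.

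Neither the endothelial list (326.5 to 566 CPM), the bile duct list (20.5 to 69.4 CPM), the mesothelium list (1.79 to 19.7 CPM), the fibroblast list nor the hepatocyte list had a called gene in any comparison, and the skeletal and pacemaker and nerve lists had 0 as well. At most 1.45% of all genes were called in any comparison, so 0 called in such short lists says little. The adipocyte list had 0 called and was highest in GLYLC 544 (91.1 CPM) and high in CONLC 166 (57.8 CPM). The Schwann cell list was highest in CONLC 941 (36.4 CPM). The epidermis list reached 9.15 CPM in GLYHC 154, with KRT1 and KRT14 called higher in HC and KRT1 in GLYHC against GLYLC. Both were near the floor. KRT1 had 0 reads in 22 libraries and at most 4.66 CPM (GLYHC 154), and KRT14 0 reads in 17 libraries and at most 0.669 CPM (GLYHC 32). Of 6 leukocyte genes, CD68 was called higher in HC (log2 fold change 0.61), and the list ranged from 254 to 377 CPM.

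Some members share sequence or position with other genes. ACTA2 and ACTG2 encode proteins near-identical to the skeletal and heart actins ACTA1 and ACTC1, and how far reads can be told apart between these genes was not tested. ACTG2 lay within 0.323 to 1.14 CPM in the 4 skeletal muscle biopsies, of which CONLC 166 had the highest ACTA1 level, 990.3 CPM. In the RefSeq annotation of the ARS-UCD2.0 assembly, which is not the build of the counts, MYH11 overlaps NDE1, ACTG2 a pseudogene and a long non-coding RNA, and LMOD1 a long non-coding RNA. NDE1 stood at 3.98 CPM in GLYLC 912, within the 2.85 to 8.10 CPM of the other biopsies.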

How the data were processed

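The authors made TruSeq stranded poly(A) libraries and, per the labels, used FastQC, Trim Galore, HISAT2 2.1.0 on the UMD3.1 genome and HTSeq 0.8.0 for counts per gene; the strand setting is not given in the sources used here. The raw counts they deposited were used, not their normalized table. All 31 sample columns were used and 0 were left out. Genes with at least 20 reads over all cows were fitted in edgeR 4.0.16 (R 4.3.3, limma 3.58.1): TMM, quasi-likelihood F test, 1 coefficient per group, or an additive model of both factors for HC against LC and GLY against CON. Genes were called at p under 0.05 and Benjamini-Hochberg adjusted p under 0.1, as in the study; SE was the log2 fold change over the square root of F. Correlations used log2 CPM with a prior count of 2. DESeq2 1.42.0 was an alternative. Scripts were tested on simulated data.

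Named were all members, the 10 genes most like their mean, and the called genes of the marker lists. The 4 genes with the highest mean CPM were named for the other contractile, skeletal and heart muscle, stellate cell and pericyte lists. Other genes were chosen after their values were seen, among them the examples FABP2 and BCO1, APOA1 and COL1A1, and the defining genes of a cell type. From some lists no gene was named. Members and lists were chosen with earlier results of these data known. Symbols come from the count table, where 4961 genes have none, and all 10 members were found once by symbol in RefSeq. p-values measure the spread between cows. The result of 1 gene of the marker lists is not reported here.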

Additional observations from a re-analysis of the deposited data

Results flagged for a closer look

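In each group of 7 or 8 cows the highest and lowest level of each member was compared with its nearest neighbour by Dixon's ratio of gap to range. For normally distributed values chance marks about 1 in 20 groups. The ratio was taken on CPM without logs, where high values stretch the scale, so that rate need not hold and high marks are favoured. Of 40 groups, 22 were marked, all on the high side. The genes were chosen with these levels known and all 40 groups come from the same 31 libraries, so nothing is read from that count. GLYLC 912 accounted for 9 of them, with 353.5 CPM of ACTG2 (nearest cow 2.01), 737 CPM of MYH11 (51.2), 509 CPM of DES (43.7), 245 CPM of TPM2 (86.1), 170.4 CPM of TAGLN (25.4), 155.0 CPM of MYL9 (18.3), 124 CPM of CNN1 (1.18), 99.1 CPM of SYNM (8.78) and 17.6 CPM of LMOD1 (8.62). The only member not marked in that cow was ACTA2, which was marked in no group.

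CONHC 123 stood apart for TPM2 (372 CPM), DES (207 CPM) and SYNM (21.2 CPM), GLYHC 127 for TPM2 (319.6 CPM), DES (161 CPM) and SYNM (18.6 CPM), and CONLC 166 for TPM2 (664 CPM) and DES (298 CPM). These are 3 of the 4 biopsies with the highest skeletal and heart muscle level, and the fourth, CONLC 103, stood apart for CNN1 (4.84 CPM). GLYHC 152 stood apart for ACTG2 (1.66 CPM) and CNN1 (1.40 CPM), GLYHC 37 for TAGLN (12.5 CPM, nearest cow 7.96) and CONHC 134 for MYH11 (48.7 CPM, nearest cow 34.9).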

How the results depend on the processing

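No paired analysis was possible because the groups share no animal numbers. In GLYHC against GLYLC, where 4 members were called, 4 were called with RLE scaling, with library size alone and without the read filter and 3 with filterByExpr; the count was 1 with a robust fit and at adjusted p under 0.05, 2 with DESeq2 and 0 with edgeR on only the 2 groups, and 0 in each of 3 fits chosen after seeing the data (without the 4 skeletal muscle biopsies, without these and GLYLC 912, and with their list level as covariate). Over all genes, 32 were called in the main fit, 66 with RLE, 63 with library size alone, 23 without the filter and 11 with filterByExpr. The robust fit called 8 genes, adjusted p under 0.05 gave 7, DESeq2 on 2 groups 87 and edgeR on 2 groups 0. The 3 added fits called 0, 1 and 1 genes, so the member counts are not read as a result about these genes. The sizes stayed without the 4 biopsies (ACTG2 -6.19, CNN1 -5.04, median -2.28) and with the covariate (ACTG2 -5.82, CNN1 -4.52, median -1.59), each with 10 members at unadjusted p under 0.05, and shrank when GLYLC 912 was also left out (median -0.66). DESeq2 on all cows called 3 (ACTA2, TAGLN and LMOD1). It replaced counts of 6 members in GLYLC 912, ACTG2 from 9680 to 21 reads, and 1 each in CONLC 166, CONHC 123 and GLYHC 127. The 3 called genes were not among those replaced. In HC against LC (3 called) the count was 1 at adjusted p under 0.05, 0 without the 4 biopsies and 0 without these and GLYLC 912. Over all genes 231 were called, against 55, 44 and 42 in these settings. DESeq2 called 3 members (ACTA2, TAGLN and MYH11) and 434 genes. In GLYLC against CONLC (1 called) the count was 0 with filterByExpr, a robust fit, adjusted p under 0.05, both DESeq2 fits, edgeR on 2 groups and the 3 added fits. Over all genes 10 were called in the main fit, 4 and 2 in the DESeq2 fits and 0 in the others named. The other 4 comparisons had 0 members called throughout. 

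Leaving out 1 cow at a time gave 0 to 6 called members in GLYHC against GLYLC (0 without GLYHC 32, GLYHC 127, GLYHC 154 or GLYLC 912, 1 without GLYHC 117, GLYHC 131, GLYHC 152 or GLYHC 159, 6 without GLYLC 102 or GLYLC 209, 2 without CONHC 7, CONHC 170, CONLC 60 or CONLC 103), 0 to 2 in GLYLC against CONLC (0 in 23 of 31 fits, 2 without GLYLC 209) and 1 to 5 in HC against LC (5 without CONLC 260, 1 without any GLYHC cow but GLYHC 37 or without GLYLC 912). Calls over all genes moved as well, from 0 to 150, from 0 to 41 and from 83 to 404 in these comparisons. Log2 fold changes that turned in such fits ranged, in CONHC against CONLC, from -1.75 to 0.42 (DES) and -2.07 to 0.50 (TPM2); in GLYHC against GLYLC, from -2.62 to 0.60 (DES) and -1.77 to 0.63 (TPM2); in HC against LC, from -1.25 to 0.14 (TPM2); and in GLYLC against CONLC, from -0.31 to 0.22 (ACTA2), -0.18 to 1.52 (TAGLN), -0.06 to 1.89 (MYH11), -0.69 to 4.44 (CNN1), -0.07 to 1.48 (MYL9), -0.09 to 0.62 (LMOD1), -1.56 to 1.53 (DES), -1.77 to 0.39 (TPM2) and -0.63 to 1.47 (SYNM). 

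Other reversals were in CONHC against CONLC without the 4 biopsies (MYL9 0.01, DES 0.45, TPM2 1.23) and without these and GLYLC 912 (0.00, 0.44, 1.22), and in HC against LC in the latter fit (TPM2 0.11). In GLYLC against CONLC they were, with DESeq2 on all cows, MYH11 -0.10, CNN1 -0.77, MYL9 -0.10, DES -0.50 and SYNM -0.67; with DESeq2 on 2 groups, TAGLN -0.18, MYH11 -0.06, CNN1 -0.68, MYL9 -0.07, DES -0.49, TPM2 0.46 and SYNM -0.63; and TPM2 2.37, 1.51 and 0.26 in the 3 added fits. Apart from the replaced counts, the cause was not tested. Depth limits ACTG2 and CNN1, with medians of 15 and 11 reads.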
